A study of Mus musculus with 6 samples.

Results

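The DNA repair genes that act during somatic hypermutation and class switching were compared between p80HT and WT splenic B cells. The genes were taken from a list of 32, by gene symbol, that covers base excision, mismatch, end-joining and break repair. Of these, 30 were measured, among 19938 genes in the table, each read at the probeset (a group of array probes summarised to 1 value) with the highest mean over all 6 arrays. This was a choice among 2 probesets only for Nbn. Tdg, a thymine DNA glycosylase, shares its probesets with another symbol, and Dclre1c, the Artemis nuclease of end joining, was not analysed here. H2afx was read under its present symbol, H2ax.

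RNA came from spleen cells picked with an antibody to B220, a form of CD45 on most mouse B cells, and magnetic beads, and each mouse had 1 Affymetrix Mouse Gene 1.0 ST array. The p80HT group was 3 transgenic mice with serum M-protein, a monoclonal immunoglobulin. They carry the human coding sequence of p80HT, a truncated NF-κB2 found in lymphoma, driven by an H-2Kb promoter with an immunoglobulin μ enhancer, so that T lymphocytes express it as well as B lymphocytes. The WT group was 3 littermates without the transgene, and both groups were 1 year old on a C57BL/6J x SJL/J background. In such bulk samples, fewer cells of a type and less RNA per cell cannot be told apart.

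Activated B cells mutate their antibody genes and exchange the constant region of the heavy chain after a deaminase turns cytosine into uracil. Base excision repair begins when a DNA glycosylase cuts out an altered base, after which an endonuclease opens the strand, and mismatch repair can instead remove a longer stretch that an error-prone polymerase fills in. In class switching, breaks in both strands are sensed by kinases and chromatin proteins and sealed mostly by non-homologous end joining. Homologous recombination and polymerase theta handle breaks in other ways, chiefly in dividing cells.

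The array of p80HT replicate 3 stood apart. Its values over all genes (genes not being independent replicates) correlated with those of the other 5 arrays at 0.914 to 0.925, while these correlated with each other at 0.981 or above. The 7 measured B cell markers had a mean level (log2 signal) of 12.37, 12.29 and 11.29 in p80HT replicates 1, 2 and 3, against 12.39, 12.54 and 12.46 in WT. Markers of the labelled cell type thus had high signal on all 6 arrays, and their mean was lowest on p80HT replicate 3. The 10 T cell markers averaged 9.31, 9.16 and 10.70 in p80HT, against 8.28, 8.62 and 8.44 in WT. All 10 were higher on every p80HT array than on any WT array. The 8 measured salivary and lacrimal gland markers averaged 6.83 and 6.95 in p80HT replicates 1 and 2 and 12.20 in p80HT replicate 3, against 6.59 to 6.84 in WT. The 20 measured S, G2 and M phase genes averaged 9.23 and 9.31 in p80HT replicates 1 and 2 and 10.56 in p80HT replicate 3, against 9.30 to 9.43 in WT, and 18 of them were highest on p80HT replicate 3. At the threshold given below, 4 of the 10 T cell, 2 of 8 macrophage, 2 of 6 erythroid and 1 of 8 plasma cell markers rose, 2 of 7 germinal centre markers and 1 of the 20 cycling genes fell, and no B cell, gland or stromal marker passed, where 1.22% of all genes rose and 0.968% fell. Without p80HT replicate 3, 8 of the T cell, 2 of the macrophage, 4 of the erythroid and 1 of the plasma cell markers rose, 5 of the germinal centre markers and 2 of the cycling genes fell, and again no B cell, gland or stromal marker passed, where 2.01% of all genes rose and 1.45% fell. Every main result is given with and without that array, and the part of these markers in the results was not tested.

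Because p80HT is a form of a transcription factor subunit, the promoters of the repair genes were searched for short motifs. RefSeq windows of 250 bases before to 50 after each start (build GRCm38.p6) were found for 22 of the 30 measured genes. Neil1, the gene with the largest difference, is shown beside Msh6 and Mbd4, which came next once p80HT replicate 3 (described above) was left out, and capitals mark GC boxes (GGGCGG or CCGCCC) and CCAAT boxes (CCAAT or ATTGG). The windows are chr9:57148256-57148555 on the minus strand for Neil1, chr17:87974800-87975099 on the plus strand for Msh6, and chr6:115853292-115853591 on the minus strand for Mbd4, each printed 5′ to 3′ along its strand.
Neil1: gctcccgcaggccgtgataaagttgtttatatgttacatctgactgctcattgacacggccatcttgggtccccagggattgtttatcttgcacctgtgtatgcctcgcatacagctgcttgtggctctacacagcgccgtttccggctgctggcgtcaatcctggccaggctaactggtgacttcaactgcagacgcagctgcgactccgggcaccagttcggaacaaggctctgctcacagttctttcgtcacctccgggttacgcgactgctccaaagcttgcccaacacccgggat
Msh6: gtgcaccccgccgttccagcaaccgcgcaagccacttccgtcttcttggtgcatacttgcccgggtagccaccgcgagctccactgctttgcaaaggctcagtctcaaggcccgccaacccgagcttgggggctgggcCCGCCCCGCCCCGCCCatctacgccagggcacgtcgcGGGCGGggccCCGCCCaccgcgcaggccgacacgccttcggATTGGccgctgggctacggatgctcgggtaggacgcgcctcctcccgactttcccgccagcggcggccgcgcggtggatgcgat
Mbd4: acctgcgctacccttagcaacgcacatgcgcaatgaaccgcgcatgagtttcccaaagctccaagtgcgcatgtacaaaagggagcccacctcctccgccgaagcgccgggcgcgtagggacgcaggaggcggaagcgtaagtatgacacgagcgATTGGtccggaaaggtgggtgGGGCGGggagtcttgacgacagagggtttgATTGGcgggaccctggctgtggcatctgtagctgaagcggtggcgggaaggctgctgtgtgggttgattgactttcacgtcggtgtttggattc
The Neil1 window holds neither box. The Msh6 window holds 5 GC boxes, some of which overlap by 1 base, and 1 CCAAT box, and the Mbd4 window holds 1 GC box and 2 CCAAT boxes. Over the members, 16 of 22 have a GC box and 13 of 22 a CCAAT box, against 35.7% and 37.4% of all 32851 windows. The κB consensus was searched on both strands as GGGRNNYYCC, where R is A or G, Y is C or T and N is any base. It was matched in 0 of the 22 genes, against 8.46% of all windows. The member counts are of genes, and the shares beside them are of windows. An E2F site (TTTCCCGC or TTTGGCGC, on either strand) was matched in Brca2, Msh6 and Xrcc6, 3 of the 22, against 1.56% of all windows. These are matches of letters, not evidence of binding.

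Between p80HT and WT B cells, 1 of the 30 measured repair genes fell and none rose. A gene was called at the study's threshold, a difference of 1.5-fold or more and an unadjusted p under 0.01 in limma, which called 0.968% of all genes lower and 1.22% higher. The gene that fell was Neil1, a glycosylase that removes oxidised bases. Its fall was known from earlier work on these arrays, so its call here is not independent of that work. With Benjamini-Hochberg adjustment over the whole table and a call at 0.05, limma found 0 members in either direction and 11 genes in all. At an unadjusted p under 0.05, 5 members were lower (Neil1, Mbd4, Trp53bp1, Nbn and Mre11a) and 0 higher, against 5.96% and 4.28% of all genes. All 3 p80HT arrays lay below all 3 WT arrays for 11 of the 30, and above them for 0, where 11.9% and 8.86% of all genes did so. The log2 difference, p80HT minus WT, was below 0 for 21 of the 30 (70.0%), with a median of -0.14, against 54.9% and -0.02 over all genes. With Neil1 set aside, 0 of the other 29 were called in either direction, and their median was -0.14. Of these 29, 4 were lower at an unadjusted p under 0.05, and 10 had all p80HT arrays below all WT arrays.

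Without p80HT replicate 3, more of the repair genes lay below WT. Neil1 was still the only member called at the study's threshold, which then called 1.45% of genes lower and 2.01% higher. At an adjusted p under 0.05, 2 members were called lower, Neil1 and Msh6, a subunit of the mismatch sensor, and 0 higher, against 2.11% and 2.56% of all genes. At an unadjusted p under 0.05, 12 were lower and 1, Neil2, was higher, against 11.7% and 9.84%. Neil2 had the lowest mean signal of the 30 members, below the 25th percentile of all genes. Both remaining p80HT arrays lay below all WT arrays for 18 of the 30, and above them for 1, against 20.5% and 19.7% of all genes. The difference was below 0 for 27 of the 30 (90.0%) with a median of -0.21, against 43.7% and 0.04 over all genes.

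**Figure D1:**
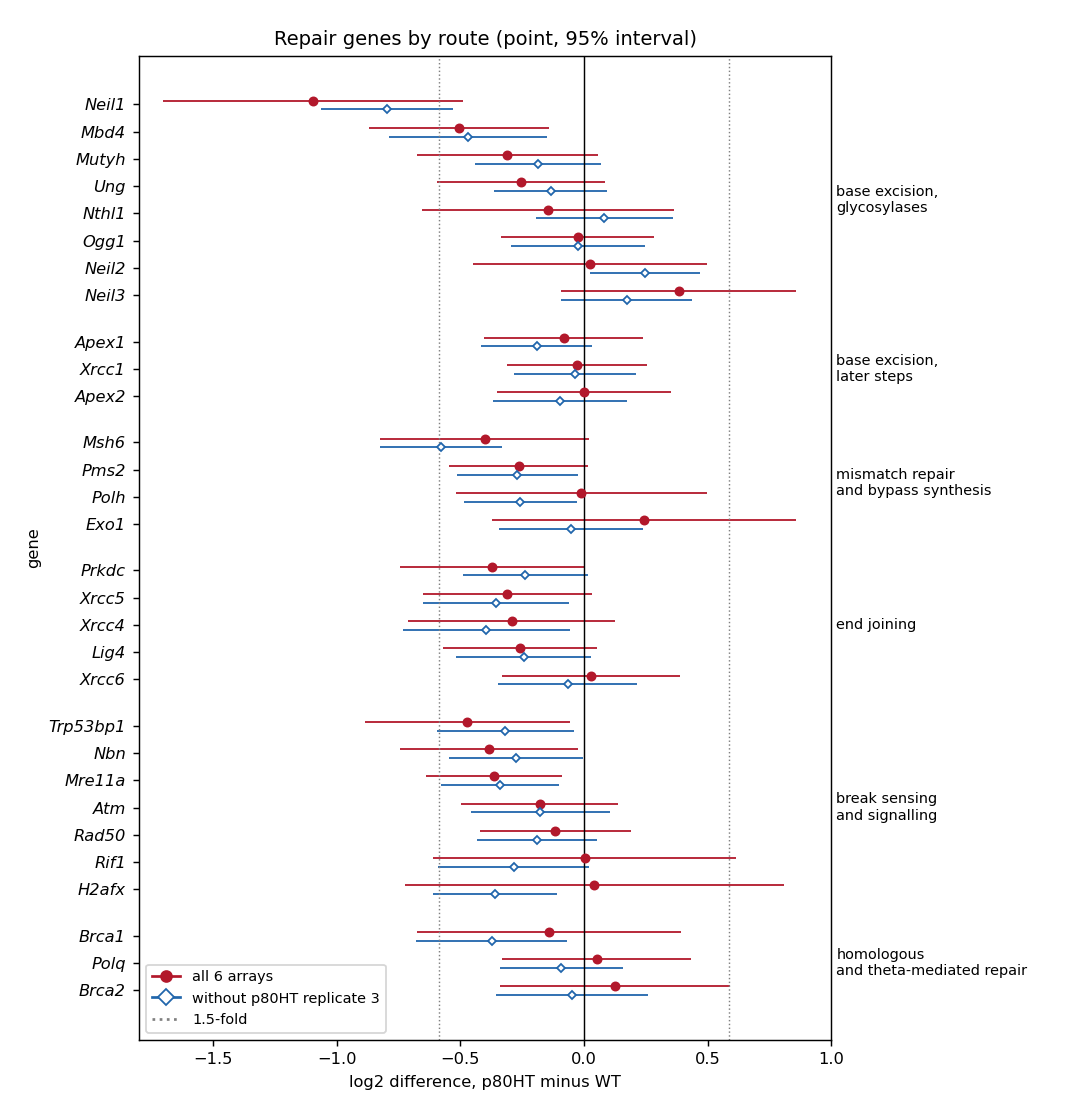
Log2 difference, p80HT minus WT (horizontal axis), for the 30 measured repair genes by route, with all 6 arrays (filled points) and without p80HT replicate 3 (open points); bars are 95% intervals and dotted lines mark 1.5-fold. Neil1 (-1.09, and -0.80 without that array) lies farthest from 0 and is the 1 gene with a point estimate past 1.5-fold.

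Neil1 was at 9.44, 9.49 and 8.57 (log2 signal) in p80HT replicates 1, 2 and 3, against 10.12, 10.43 and 10.24 in WT replicates 1, 2 and 3. The groups did not overlap, and p80HT replicate 3 was the lowest of the 6. The group means were 9.17 ± 0.52 in p80HT and 10.26 ± 0.16 in WT (SD, n = 3 each). The log2 difference was -1.09 (95% interval -1.70 to -0.49), so that p80HT B cells had 46.8% of the WT signal (limma, adjusted p = 0.256). Without p80HT replicate 3 it was -0.80 (-1.06 to -0.53), or 57.6% of WT, with an adjusted p of 0.00521. Among all genes, 0.39% had a larger fall than Neil1, which stood at position 79, and at position 45 among the 193 genes called lower. With 3 mice a group, the smallest p that an exact permutation test of 1 gene allows is 0.10. The call of Neil1 was lost, with limma giving an unadjusted p above 0.01, when WT replicate 1 (-1.16), WT replicate 2 (-1.01) or WT replicate 3 (-1.11) was left out, while the size of the difference stayed within its interval. The mean of the 7 measured germinal centre markers was 7.93, 7.98 and 9.46 in p80HT replicates 1, 2 and 3, against 8.99, 9.13 and 8.98 in WT, and of these Bcl6 (-0.65) and Rgs13 (-2.44) fell. Without p80HT replicate 3, 5 of the 7 fell, Bcl6 (-0.63), Rgs13 (-3.15), S1pr2 (-0.59), Gcsam (-1.13) and Mybl1 (-1.85). Fas (0.71, and 0.12 without that array) and Basp1 (0.16, and -0.30 without it) did not pass. The germinal centre mean was highest on p80HT replicate 3, where Neil1 was lowest. All 7 measured B cell markers were also lowest on that array, with a median difference of -0.46, and -0.15 without it, and none passed. The part of either list of markers in the fall of Neil1 was not tested.

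Neither of the 2 paralogs of Neil1 passed the threshold, and both had lower signal than Neil1, which was at percentile 80.6 of all genes. Neil2 had the lowest mean signal of the 30 members (6.7), below the 25th percentile of all genes (6.81). The mean signal of Neil3 was below the median of all genes (7.89). Neil2, which removes oxidised bases, also from bubbles and single strands, was at 6.94, 6.94 and 6.27 in p80HT, against 6.68, 6.71 and 6.69 in WT. Its first 2 p80HT values lay above all WT values and the third below them, which gave a difference of 0.02 (-0.45 to 0.50) with all arrays and 0.25 (0.02 to 0.47, adjusted p = 0.190) without p80HT replicate 3. Neil3, a glycosylase of dividing cells, had a difference of 0.38 (-0.09 to 0.86), and 0.17 without p80HT replicate 3, the array on which it was highest. Whether Neil1 differed from its paralogs in its response was not tested.

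Ung, the uracil glycosylase that starts repair of deaminated cytosine, was at 8.38, 8.39 and 8.02 in p80HT, against 8.54, 8.57 and 8.45 in WT. The groups did not overlap, but the difference of -0.25 (-0.59 to 0.08) did not pass, nor did -0.13 (-0.36 to 0.09) without p80HT replicate 3. Mbd4, a glycosylase for thymine or uracil opposite guanine, was at 8.59, 8.77 and 8.57 in p80HT, against 8.89, 9.32 and 9.24 in WT. Its p80HT values were close together and all below WT. The difference was -0.50 (-0.87 to -0.14), or 70.5% of WT (limma, adjusted p = 0.357), and -0.47 (adjusted p = 0.0989) without p80HT replicate 3. It was short of 1.5-fold both times. Mutyh, which takes out adenine paired with oxidised guanine, had groups that did not overlap. Its difference was -0.31 (-0.68 to 0.06), and -0.19 without p80HT replicate 3. Nthl1, which acts on oxidised pyrimidines, was at -0.14 (-0.65 to 0.36), and on the other side of 0 without that array (0.08). Ogg1, the oxidised guanine glycosylase, was at -0.03 (-0.33 to 0.28), and at -0.02 without it. Over the 8 measured glycosylases, 1 fell, none rose and 7 did not pass, with a median of -0.20, and 6 of the 8 were lowest on p80HT replicate 3, against 48.1% of all genes. Without it the median was -0.08.

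**Figure D2:**
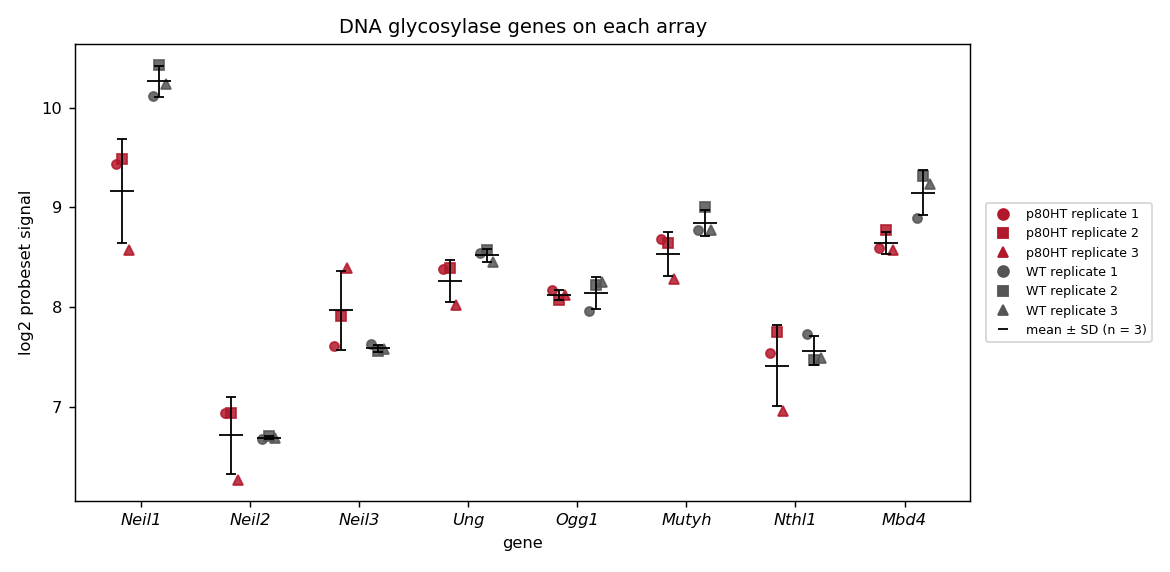
Log2 probeset signal (vertical axis) of the 8 measured DNA glycosylase genes, a point for each mouse, with the mean and SD of each group (n = 3); p80HT is left of WT for each gene. For Neil1, Ung, Mutyh and Mbd4 all p80HT points lie below all WT points, and p80HT replicate 3 (triangles) is the lowest point for 6 of the 8 genes.

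The genes of the later base excision steps lay near WT. Apex1, the main endonuclease at sites without a base, had a difference of -0.08 (-0.40 to 0.24), and -0.19 without p80HT replicate 3. Its relative Apex2 was at 0.00 (-0.35 to 0.35), and at -0.10 without that array. Xrcc1, a scaffold for single-strand break repair, was at -0.03 (-0.31 to 0.25), and at -0.04 without it. None of the 3 passed, and their median was -0.03, or -0.10 without p80HT replicate 3.

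In the mismatch route, Msh6, which pairs with another MutS protein to find mismatches, was at 7.80, 7.86 and 8.37 in p80HT, against 8.29, 8.49 and 8.46 in WT. The first 2 p80HT values lay below all WT values, and the third within their range. The difference was -0.40 (-0.82 to 0.02, adjusted p = 0.507) with all arrays and -0.58 (-0.83 to -0.33) without p80HT replicate 3, at 67.0% of WT (limma, adjusted p = 0.0180), just short of 1.5-fold. Pms2, a nicking subunit of the MutL complex, was at 8.70, 8.66 and 8.69 in p80HT, against 8.85, 9.06 and 8.93 in WT. These groups did not overlap and the p80HT values spread least of the 30 genes but one. Its difference was -0.26 (-0.54 to 0.02), or -0.27 (-0.51 to -0.02, adjusted p = 0.193 in limma) without p80HT replicate 3.

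Polh, the error-prone polymerase eta that writes mutations at A and T bases, was at 8.47, 8.46 and 9.20 in p80HT, against 8.71, 8.79 and 8.67 in WT. Only p80HT replicate 3 lay above WT, so that the difference was -0.01 (-0.52 to 0.50) with it and -0.26 (-0.49 to -0.03, adjusted p = 0.188 in limma) without it. Exo1, the exonuclease that widens the gap, was at 0.24 (-0.37 to 0.86), and at -0.05 without p80HT replicate 3. On that array Exo1 was 0.89 above the mean of p80HT replicates 1 and 2, Polh 0.74 and Msh6 0.54. None of the 4 genes passed the threshold, with a median of -0.14, and of -0.26 without p80HT replicate 3.

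Among the end-joining genes none of the 5 measured passed, and the median was -0.29, or -0.24 without p80HT replicate 3. Xrcc5, which encodes the larger subunit of the Ku heterodimer that caps broken ends, was at 9.07, 8.92 and 9.13 in p80HT, against 9.17, 9.55 and 9.34 in WT. The groups did not overlap, though p80HT replicate 3 and WT replicate 1 were close. The difference was -0.31 (-0.65 to 0.03), and -0.36 (-0.65 to -0.06, adjusted p = 0.160 in limma) without p80HT replicate 3. Xrcc6, the other Ku subunit, was at 0.03 (-0.33 to 0.39), and at -0.07 without p80HT replicate 3. Xrcc4, which holds the ligase at the ends, was at 9.48, 9.14 and 9.62 in p80HT, against 9.51, 9.93 and 9.68 in WT. Here p80HT replicate 3 lay inside the WT range, and the difference was -0.29 (-0.71 to 0.13), or -0.40 (-0.73 to -0.06, adjusted p = 0.171 in limma) without it. Lig4, the ligase itself, was at -0.26 (-0.57 to 0.05) and Prkdc, the DNA-dependent kinase, at -0.37 (-0.74 to 0.00), both with groups that did not overlap. Both were at -0.24 without p80HT replicate 3.

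The 7 genes of break sensing and signalling held 3 of the 5 members at an unadjusted p under 0.05, and none passed the threshold. Trp53bp1 (53BP1), which shields broken ends from trimming and is needed for class switching, was at 9.05, 8.90 and 8.52 in p80HT, against 9.11, 9.42 and 9.35 in WT. Its groups did not overlap and p80HT replicate 3 was lowest. The difference was -0.47 (-0.89 to -0.06, 72.1% of WT, adjusted p = 0.438 in limma), and -0.32 (-0.59 to -0.04) without that array.

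Mre11a, Rad50 and Nbn encode the complex that first binds a break and activates the ATM kinase. Mre11a, its nuclease, was at 9.02, 8.91 and 8.89 in p80HT, against 9.24, 9.37 and 9.30 in WT. The values within each group were close and the groups did not overlap. The difference was -0.36 (-0.64 to -0.09, adjusted p = 0.380 in limma), and -0.34 (adjusted p = 0.105) without p80HT replicate 3. Nbn, the subunit that recruits ATM, was at 8.85, 8.69 and 8.45 in p80HT, against 8.88, 9.15 and 9.11 in WT. Those groups did not overlap either, but p80HT replicate 1 and WT replicate 1 were almost level. The difference was -0.38 (-0.74 to -0.02, adjusted p = 0.467), and -0.28 (-0.55 to -0.01) without p80HT replicate 3. Rad50, which tethers the ends, was at -0.12 (-0.42 to 0.19), and at -0.19 without p80HT replicate 3. Atm was at -0.18 (-0.50 to 0.14), and at -0.18 without it.

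H2afx, the histone variant that ATM phosphorylates around a break, was at 9.50, 9.33 and 10.62 in p80HT, against 9.69, 9.87 and 9.76 in WT. The first 2 p80HT values lay below all WT values and the third above them all, the widest split of any member on that array (1.21 above the mean of p80HT replicates 1 and 2). The difference was 0.04 (-0.72 to 0.81) with all arrays and -0.36 (-0.61 to -0.11, adjusted p = 0.105 in limma) without p80HT replicate 3. Rif1, a partner of 53BP1, was at 0.00 (-0.61 to 0.61), and at -0.28 (-0.59 to 0.02) without p80HT replicate 3, on which it was 0.86 above the other p80HT mean. The median over the 7 genes was -0.18, and -0.28 without p80HT replicate 3.

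**Figure D3:**
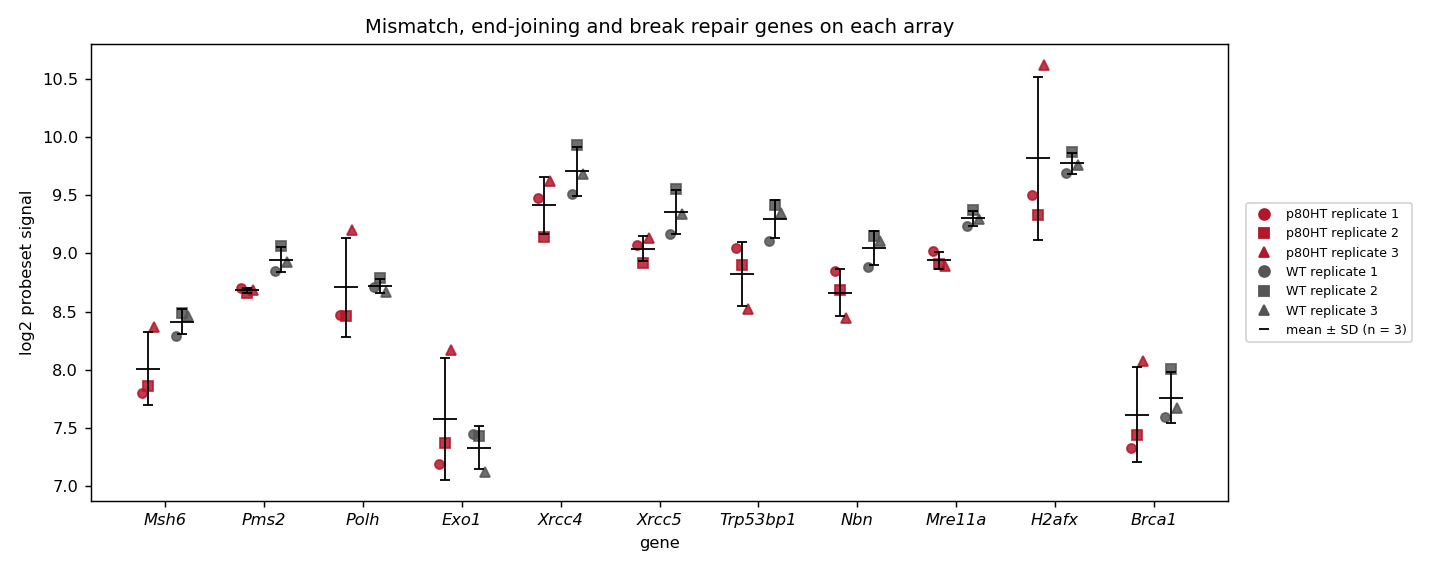
Log2 probeset signal (vertical axis) of 11 mismatch, end-joining and break repair genes, a point for each mouse, with the mean and SD of each group (n = 3); p80HT is left of WT for each gene. All p80HT points lie below all WT points for Pms2, Xrcc5, Trp53bp1, Nbn and Mre11a. The point of p80HT replicate 3 (triangles) lies above the other p80HT points for Msh6, Polh, Exo1, Xrcc4, Xrcc5, H2afx and Brca1.

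The genes of homologous and theta-mediated repair had no member past the threshold. Brca1, which promotes trimming of ends for recombination, was at 7.33, 7.44 and 8.08 in p80HT, against 7.60, 8.01 and 7.67 in WT. Replicates 1 and 2 of p80HT lay below WT and replicate 3 above, for a difference of -0.14 (-0.68 to 0.39), or -0.37 (-0.68 to -0.07, adjusted p = 0.156 in limma) without p80HT replicate 3. Brca2, which loads the recombinase, was at 0.13 (-0.34 to 0.59) and Polq, polymerase theta, at 0.05 (-0.33 to 0.43). Both lay below 0 without p80HT replicate 3, at -0.05 for Brca2 and -0.09 for Polq. The median was 0.05, and -0.09 without p80HT replicate 3, on which all 3 genes were the highest of the 6 arrays, against 27.8% of all genes. The median was also below 0 with each array centred on its own median (-0.03, against -0.11 over all genes). With quantile normalization it was -0.05, against -0.03 over all genes.

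On p80HT replicate 3, 11 of the 30 members were the highest of the 6 arrays and 10 the lowest, against 27.8% and 48.1% of all genes. Its largest excesses over p80HT replicates 1 and 2 were in H2afx (1.21), Exo1 (0.89), Rif1 (0.86), Polh (0.74), Brca1 (0.69) and Neil3 (0.63), and its largest deficits in Neil1 (-0.90), Nthl1 (-0.68) and Neil2 (-0.67). Most S, G2 and M phase genes were also highest on that array: Mki67, a marker of cycling cells, was at 10.01, 10.17 and 11.79 in p80HT, against 10.33, 10.18 and 10.02 in WT (chosen after its values were seen). The same array was highest for all 10 T cell, all 8 gland, all 7 stromal and 6 of 8 macrophage markers. It was also highest for 4 of 7 germinal centre, 4 of 8 plasma cell and 1 of 6 erythroid markers, and lowest for all 7 B cell markers. Whether the cycling genes or any of these other lists account for the repair genes on that array was not tested.

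**Figure D4:**
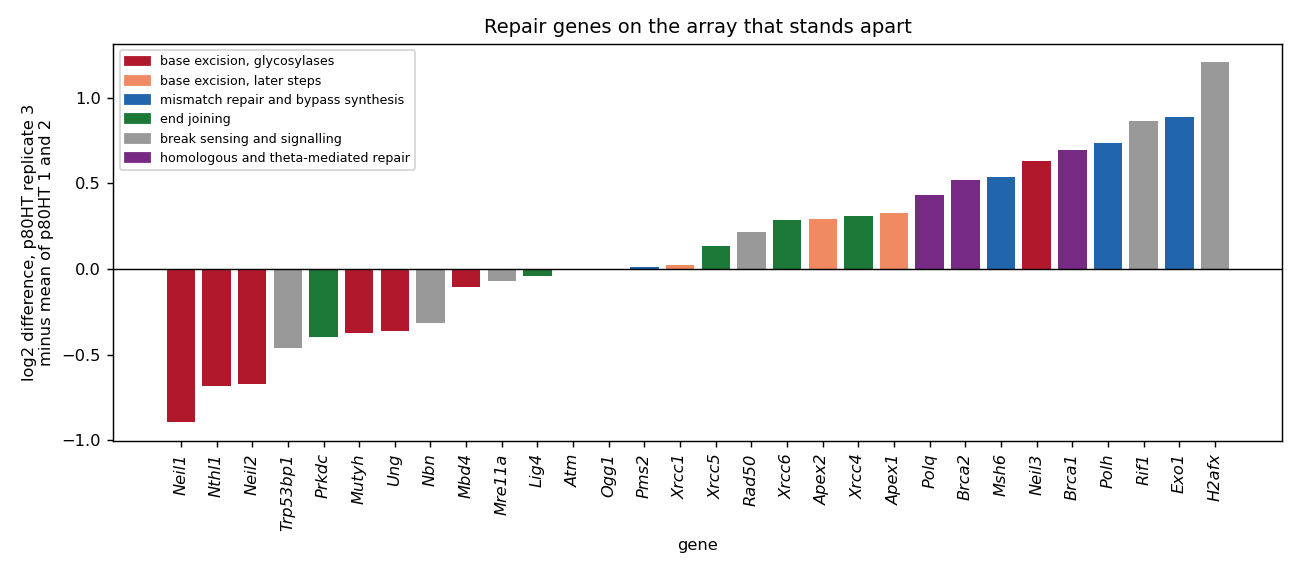
Log2 difference of p80HT replicate 3 from the mean of p80HT replicates 1 and 2 (vertical axis) for each of the 30 measured repair genes, coloured by route. The bars run from -0.90 for Neil1 to 1.21 for H2afx.

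**Figure D5:**
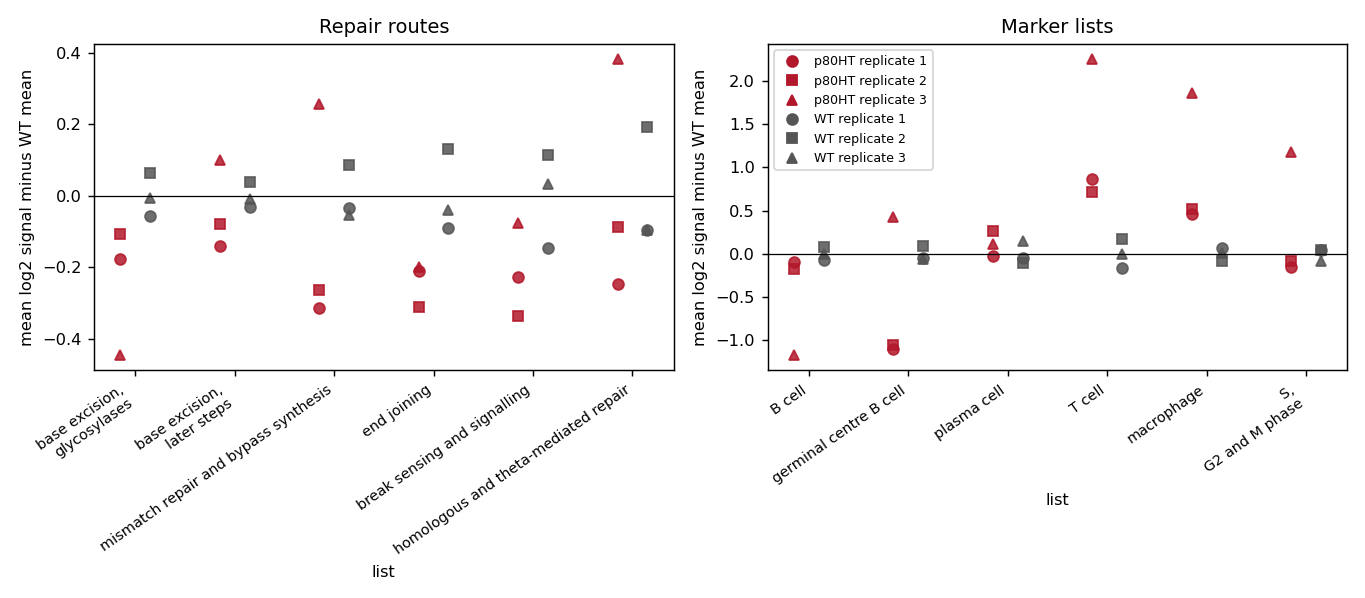
Mean log2 signal of each list minus its WT mean (vertical axis), 1 point per mouse, for the 6 repair routes (left) and 6 marker lists (right), with p80HT left of WT. The 3 p80HT points lie below the 3 WT points for the glycosylases and for end joining, and p80HT replicate 3 (triangles) is highest for the later base excision steps, mismatch repair, homologous repair, germinal centre, T cell, macrophage and S, G2 and M phase genes.

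Of 50 further repair and switching genes, 42 were measured, 0 rose and 1 fell, where 1.22% of all genes rose and 0.968% fell. Their median was -0.10, against -0.02 over all genes. The gene that fell was Parp1, the poly(ADP-ribose) polymerase that marks single-strand breaks for base excision repair. It was at 9.96, 9.98 and 9.94 in p80HT, against 10.44, 10.78 and 10.64 in WT. The p80HT values were almost level and lay below all WT values. The difference was -0.66 (limma, adjusted p = 0.181), and -0.65 (adjusted p = 0.0167) without p80HT replicate 3. Without WT replicate 2 it was -0.58, just short of 1.5-fold. At an unadjusted p under 0.05, 6 of the 42 were lower and 0 higher, against 5.96% and 4.28% of all genes. Without p80HT replicate 3, 2 of the 42 fell, Parp1 and Pcna, the sliding clamp of DNA polymerases (-0.69), against 1.45% of all genes. At an adjusted p under 0.05 the recombination gene Rad51c (-0.52) was called lower as well, against 2.11% of all genes.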

How the data were processed

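The deposited values are log2 probeset signals, 1 column for each of 6 arrays, computed by the authors with RMA in Partek. Standard RMA subtracts background, quantile-normalizes the probes and fits 1 value per probeset. Versions and settings are not given in the sources used here. Of 28853 probesets, 21789 carry 1 gene symbol, and these gave 19938 genes. Array medians were 7.68 to 7.81. An array has no read depth, and precision is limited by how many mice were used. The limma p-values weigh the difference between groups against the spread between these mice, which eBayes draws toward a value shared over all genes.

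The groups, 3 p80HT against 3 WT, were fitted over all genes with limma (3.58.1, in R 4.3.3) by lmFit and then eBayes, 2-sided and without a block, and with Benjamini-Hochberg adjustment over all genes. The call, 1.5-fold with an unadjusted p under 0.01, is the study's. Intervals are 95% intervals from the same fit. The fit was checked on simulated data. Tables and figures used Python 3.11.15, pandas 2.3.3 and matplotlib 3.10.9.

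The repair genes, routes and marker lists were chosen with earlier results of these data known. All measured members are named. Values on every array are given for those with an unadjusted p under 0.05 in either fit and for Ung, Msh6 and Xrcc5, and for other lists the genes past the threshold are named. Alternatives were leaving out each array, the replicate number as a block, an ordinary analysis of variance, an intensity trend, array weights, other normalizations, filters on low signal, the mean of probesets and other thresholds.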

Additional observations from a re-analysis of the deposited data

How the results depend on the processing

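The count of repair genes that fell, 1 with all arrays, was 0 with an ordinary analysis of variance, 0 with quantile normalization of the arrays, 0 at an adjusted p under 0.05, 2 after median centring of every array (Neil1 and Mbd4) and 3 with array weights (Neil1, Mbd4 and Msh6). Leaving out 1 array gave 0 to 1, with 0 without WT replicate 2 or WT replicate 3, and Mbd4 in place of Neil1 without WT replicate 1. At an adjusted p under 0.05 without p80HT replicate 3, an alternative chosen after seeing the data, it was 2. Neil1 lost its call with an ordinary analysis of variance (-1.09) and with quantile normalization (-1.04), in both through a p above 0.01, and at an adjusted p under 0.05 (-1.09, adjusted p = 0.256). Leaving out 1 array gave Neil1 values of -1.26 to -0.80, and limma's p was above 0.01 without WT replicate 1, 2 or 3. The cause was not tested.

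Over all genes, 243 rose and 193 fell. Leaving out 1 array gave 137 to 510 higher and 69 to 421 lower, the upper ends at an adjusted p under 0.05 without p80HT replicate 3. Without WT replicate 2 the counts were 137 and 69, and without p80HT replicate 3 they were 401 and 290 at the study's threshold. An ordinary analysis of variance gave 119 higher and 77 lower, array weights 478 and 422, an adjusted p under 0.05 10 and 1, and 1.5-fold with p under 0.05 470 and 385. Median centring gave 192 higher and 329 lower, and moved the median of all genes to -0.11, against -0.02.

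The median of the members was -0.26 over the 24 kept by a filter at the 50th percentile of mean signal. That of the glycosylases was -0.086 with array weights, -0.29 with median centring, -0.31 with the same filter and -0.31 to -0.080 without 1 array (-0.080 without p80HT replicate 3), and that of the later base excision steps was -0.16 with array weights. The filter left too few homologous repair genes for a median. The members other than Neil1 had 515 values under alternatives, of which 5 passed the threshold (Mbd4 without WT replicate 1, with array weights and with median centring, and Msh6 with array weights and, at an adjusted p under 0.05, without p80HT replicate 3), and 0 called values changed sign. Of the further repair genes, 1 fell with all arrays, 0 to 3 without 1 array (0 without WT replicate 2, 3 at an adjusted p under 0.05 without p80HT replicate 3), 2 with array weights and 0 at an adjusted p under 0.05, alternatives added after seeing the data. The labels give both groups the numbers 1 to 3, but mice of the same number correlated at 0.07, -0.24 and 0.07 in their deviations from the group means (across genes), so the numbers were not taken to pair them. With the replicate number as a block, 363 genes rose and 204 fell, and Neil1 was the 1 repair gene that fell (-1.09).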

Other observations

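Markers of other cells and states that moved beside the repair genes are given here as log2 differences, p80HT minus WT, with the value without p80HT replicate 3 after each. Among T cell markers, the receptor chains Cd3e (1.74, 1.28) and Cd3g (2.03, 1.41), the co-stimulatory receptor Cd28 (0.92, 0.87) and Cd5 (1.10, 0.79) rose. The macrophage markers Adgre1 (0.72, 0.92) and Vsig4 (0.63, 0.61) rose, as did the erythroid genes Alas2, of haem synthesis (1.30, 1.06), and Slc4a1, the red cell anion exchanger (1.65, 2.15). Prdm1, the regulator of plasma cell formation, rose (0.80, 0.67), and the centromere histone gene Cenpa fell (-0.63, -0.71). With and without p80HT replicate 3, limma called all 10 of these at the study's threshold, and with all arrays none passed an adjusted p under 0.05. Prdm1 was the only plasma cell marker called. The 8 measured had medians of 0.16 and 0.08, and Irf4 (-0.78, -0.21) and Jchain (-0.08, -0.13) lay below 0. The 20 cycling genes had medians of 0.415 and -0.085. Cenpa was 1 of 2 of them below 0 with all arrays, and 1 of 15 without p80HT replicate 3. No B cell, gland or stromal marker passed. The smallest p-values there were those of Pax5 (-0.75, -0.36), Cd79b (-0.46, -0.19), Muc19 (2.23, 0.54), Dcpp1 (1.44, 0.33), Col1a1 (0.55, 0.24) and Col3a1 (0.39, 0.17). Their part in the values of the repair genes was not tested.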
